A study of Mus musculus with 12 samples.

Results

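Clock output transcripts were examined in mouse liver through 9 genes, Dbp, Tef, Hlf, Nfil3, Bhlhe40, Bhlhe41, Ciart, Rora and Usp2. They were chosen by gene name, with earlier results of these data known, and all 9 were among the 13097 genes of the deposited count table. RNA was sequenced from the livers of 12 female C57BL/6 mice aged 3 months, with 3 individual mice in each of 4 groups. Ethanol-fed mice labelled as carrying a Sirt6 liver-specific knockout, and ethanol-fed wild type mice, were given 10 days of the Lieber-DeCarli liquid diet at 5% ethanol, followed by 1 ethanol binge of 5 g/kg. Pair-fed mice with the knockout label, and pair-fed wild type mice, received an isocaloric control diet and, as the labels are read here, the maltose dextrin binge. Diet and binge were given together, so their effects cannot be told apart, and "ethanol feeding" below means both. The sources used here do not give the Cre driver, the deleted exons, the hour of tissue collection or the time since the binge. Transcripts of clock genes swing over the day, so a level in these data belongs to whatever hour each liver was taken, and a shift of the hour and a change of the level cannot be told apart.

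The circadian clock is a feedback loop in which CLOCK and BMAL1 bind E-box motifs and switch on genes that include their own repressors. Its output runs partly through the PAR bZIP factors DBP, TEF and HLF, which activate genes through the D-box motif, while NFIL3, also called E4BP4, binds the same motif as a repressor. In liver the PAR bZIP factors are known for driving rhythmic genes of drug and lipid metabolism. BHLHE40 and BHLHE41, also called DEC1 and DEC2, repress through E-boxes, and CIART, also called CHRONO, represses CLOCK and BMAL1 directly. RORA is a nuclear receptor that activates genes, Bmal1 among them, through the ROR response element, and USP2 is a deubiquitinase whose substrates include clock proteins.

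The promoters of the 5 members that rose or fell and held a searched motif are shown by sequence, since these are the motifs through which the loop and its outputs are switched. RefSeq promoter windows (GRCm38.p6) of 250 bases ending at the base before the annotated start were found for 8 of the 9 members, with 2 starts for Tef, giving 9 windows. Bhlhe40 was not in that table. The motifs searched were the E-box CACGTG, the D-box TTANGTAA, the ROR element core AGGTCA and the cyclic AMP response element TGACGTCA, on both strands, and no match of one motif overlapped another in the windows shown. Capitals mark the matches, positions count back from the start, and the windows are Ciart at chr3:95882229-95882478 (minus strand), Tef at chr15:81802423-81802672 and at chr15:81811164-81811413 (plus strand), Bhlhe41 at chr6:145865421-145865670 (minus strand), Hlf at chr11:90390918-90391167 (minus strand) and Nfil3 at chr13:52981040-52981289 (minus strand).
Ciart: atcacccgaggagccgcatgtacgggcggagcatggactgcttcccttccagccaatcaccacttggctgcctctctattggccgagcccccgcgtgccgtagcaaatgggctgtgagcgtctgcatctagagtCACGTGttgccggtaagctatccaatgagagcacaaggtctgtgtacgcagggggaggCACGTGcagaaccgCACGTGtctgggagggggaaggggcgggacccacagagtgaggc
Tef, upstream start: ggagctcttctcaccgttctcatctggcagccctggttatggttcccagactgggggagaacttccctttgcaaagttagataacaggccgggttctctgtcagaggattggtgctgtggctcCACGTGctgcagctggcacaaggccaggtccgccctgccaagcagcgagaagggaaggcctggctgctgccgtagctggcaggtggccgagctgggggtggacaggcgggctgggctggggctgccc
Tef, downstream start: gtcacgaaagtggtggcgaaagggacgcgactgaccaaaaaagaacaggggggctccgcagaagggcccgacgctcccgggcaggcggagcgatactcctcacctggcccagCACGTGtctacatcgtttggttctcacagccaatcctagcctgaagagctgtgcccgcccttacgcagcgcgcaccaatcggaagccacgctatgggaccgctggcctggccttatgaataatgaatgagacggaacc
Bhlhe41: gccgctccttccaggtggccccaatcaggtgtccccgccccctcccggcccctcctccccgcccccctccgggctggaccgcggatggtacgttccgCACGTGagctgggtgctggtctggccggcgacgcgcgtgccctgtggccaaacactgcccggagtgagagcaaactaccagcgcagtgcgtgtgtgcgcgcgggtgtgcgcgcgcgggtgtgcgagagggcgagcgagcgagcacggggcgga
Hlf: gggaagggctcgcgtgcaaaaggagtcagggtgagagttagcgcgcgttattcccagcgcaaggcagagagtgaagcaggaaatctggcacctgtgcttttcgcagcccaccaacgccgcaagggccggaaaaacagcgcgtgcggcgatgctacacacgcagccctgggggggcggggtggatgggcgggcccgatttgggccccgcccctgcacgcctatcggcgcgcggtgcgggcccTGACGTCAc
Nfil3: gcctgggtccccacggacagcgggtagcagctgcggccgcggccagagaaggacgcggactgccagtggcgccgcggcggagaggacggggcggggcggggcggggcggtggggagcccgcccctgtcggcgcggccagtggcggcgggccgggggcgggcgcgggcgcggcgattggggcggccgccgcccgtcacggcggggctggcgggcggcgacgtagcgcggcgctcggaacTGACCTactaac

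The E-box stood in 4 of the 9 windows, against 6.02% of 32851 RefSeq promoter windows of the same length. Ciart held 3 of them, with first bases at -116, -58 and -44, and 20 of all windows (0.0609%) held 3 or more. Tef had 1 E-box at -127 from its upstream start and another at -138 from its downstream start, and Bhlhe41 had 1 at -153. Hlf had a cyclic AMP response element at -9, a motif in 1.55% of all windows. Nfil3 had the ROR element core at -12, printed as its reverse complement TGACCT, a motif in 14.0% of all windows. The D-box was in 0 of the 9 windows, against 2.06% of all windows. Dbp, Rora and Usp2 held no match to any of the 4 motifs in these windows, and the Usp2 window (chr9:44084670-44084919) lies inside the span that the count table gives the gene. A match describes these letters and no bound site.

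The knockout label did not go with a clearly lower Sirt6 count, so groups are named by their label. The counts were 53, 58 and 62 in ethanol-fed mice labelled knockout against 67, 54 and 60 in ethanol-fed wild type. Pair-fed mice labelled knockout had 52, 46 and 47 against 51, 49 and 68 in pair-fed wild type. Libraries held 17305141 to 18279809 counts. The biological coefficient of variation between mice was 0.224 in ethanol-fed mice labelled knockout and 0.270 in ethanol-fed wild type mice, against 0.114 and 0.117 in the pair-fed groups of the same labels. All 6 hepatocyte markers on the list used were detected. Their summed level was 66126 to 126367 CPM, counts scaled to library size by TMM, in ethanol-fed mice labelled knockout, 70880 to 105797 in ethanol-fed wild type, 132034 to 151756 in pair-fed mice labelled knockout and 140353 to 141900 in pair-fed wild type. Most of that sum was Alb, which encodes albumin and averaged 80466, 69183, 123676 and 124017 CPM in these 4 groups in the same order. Under ethanol edgeR called 0 of the 6 in mice labelled knockout, where 24.6% of all genes were called. Of the 6, 2 had an unadjusted p under 0.05, both lower, with 1 called lower by DESeq2 and 2 by limma voom. In wild type mice Alb and Ttr were lower and Tat, a tyrosine aminotransferase gene, was higher (1.10 ± 0.38, adjusted p = 0.0450, edgeR). There 33.4% of all genes were called. The 9 Kupffer cell markers summed to 241 to 320 CPM, 244 to 578 CPM, 527 to 679 CPM and 349 to 523 CPM in the same 4 groups. No marker on these lists was at 0 in a whole group. In bulk liver, fewer cells of a type and less RNA per cell cannot be told apart.

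Ethanol feeding moved most of the clock output genes. In mice labelled knockout, Dbp, Tef, Hlf, Ciart and Usp2 fell and Nfil3 rose. In wild type mice, Dbp, Tef, Hlf and Usp2 fell, and Nfil3, Bhlhe41 and Rora rose. Changes were called at an adjusted p under 0.05 by edgeR's quasi-likelihood test with Benjamini-Hochberg adjustment over all genes, and folds are log2, ethanol-fed over pair-fed, ± SE with 3 mice a group. In mice labelled knockout 6 of the 9 members were called, 1 higher and 5 lower, where 24.6% of all genes were called, 13.7% higher and 10.9% lower. In wild type mice 7 of 9 were called, 3 higher and 4 lower, where 33.4% of all genes were called, 18.9% higher and 14.5% lower. The members' median log2 fold change was -1.06 in mice labelled knockout and -0.58 in wild type mice, beside medians of 0.04 and 0.03 over all genes. In mice labelled knockout the fed groups did not overlap for 2 members higher (Nfil3 and Rora) and 5 lower, as for 23.5% and 20.4% of all genes. For wild type they did not overlap for 2 members higher (Nfil3 and Bhlhe41) and 4 lower, as for 24.8% and 22.3% of all genes. Kupffer cell markers moved in the first comparison as well, with 8 of 9 lower and a median of -1.22 in mice labelled knockout. In wild type mice edgeR called 0 of 9 (median -0.29), with 0 at an unadjusted p under 0.05 and 0 by DESeq2 or limma. The difference of these 2 responses was called for 0 of 9, with 6 at an unadjusted p under 0.05 and 0 by DESeq2 or limma. In pair-fed livers all 9 were higher under the knockout label (median 0.46). There edgeR and DESeq2 called 0 of 9 and limma called 1, with 1 at an unadjusted p under 0.05. Of 7 lymphocyte markers listed, 6 were measured, and 2 were lower in mice labelled knockout and 1 in wild type. Their sum was 1.86 to 6.31 CPM a liver. Endothelial markers were higher for 2 of 6 and 3 of 6, and stellate cell markers for 2 of 6 and 1 of 6, in that order. Cholangiocyte markers were higher for 1 of 5 in each, and lower for 1 of 5 in wild type. Of 2 neutrophil and monocyte markers measured, 1 was higher in wild type. On such short lists, beside 24.6% and 33.4% of all genes called, these counts are not read as results about those cells. The part of these markers in the members' values was not tested.

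**Figure D1:**
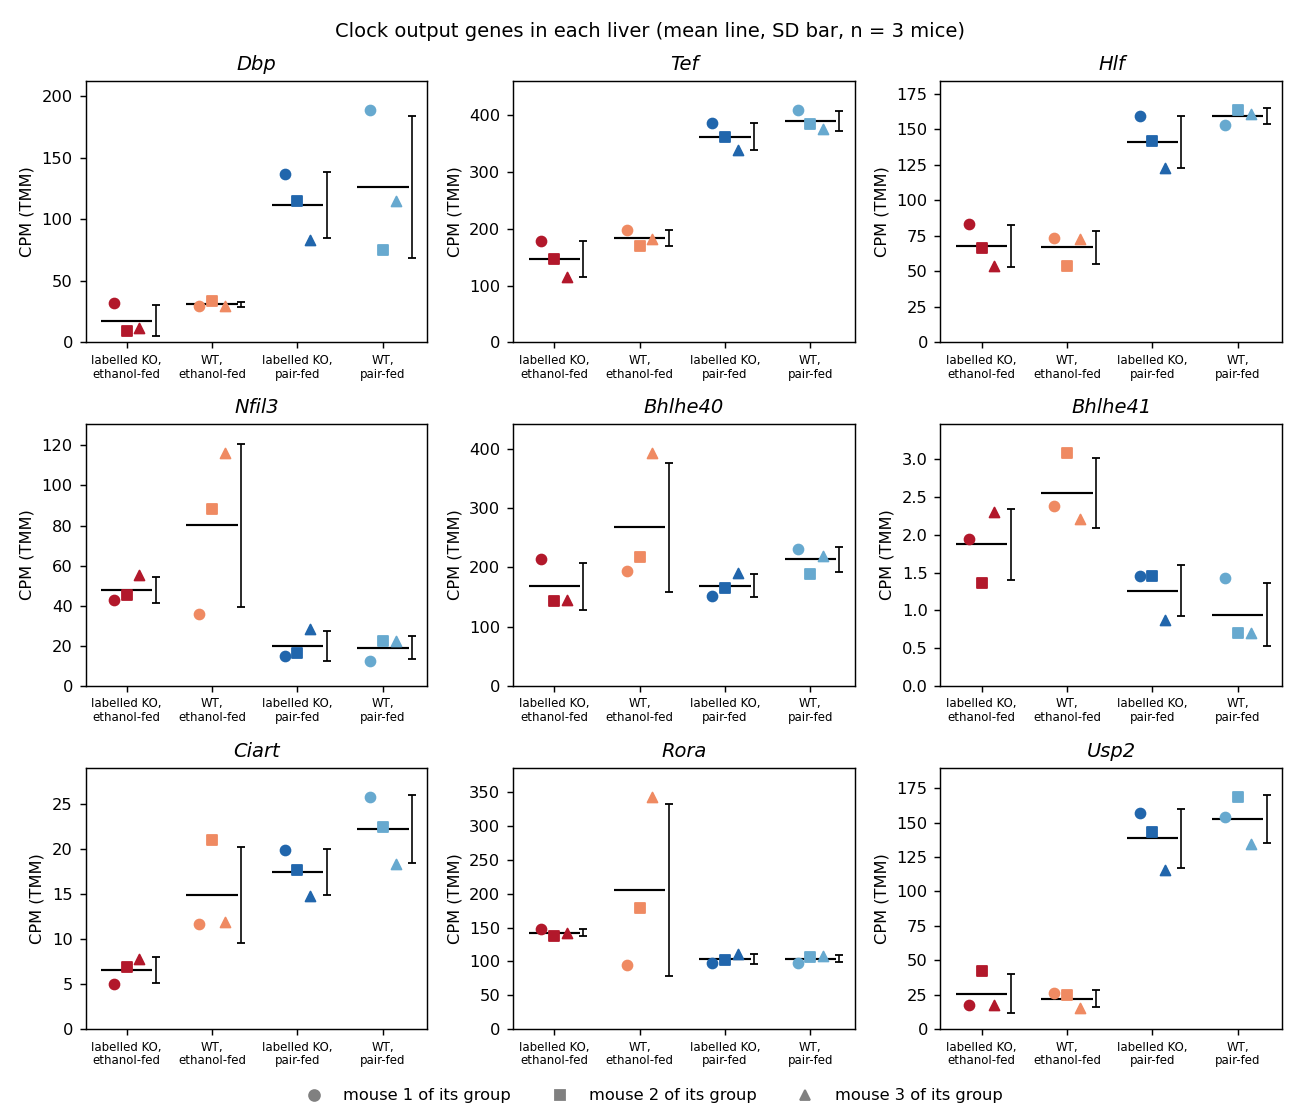
TMM-normalised CPM of the 9 genes (vertical axes, each from 0) in each of 12 livers by group, with points for mice 1 to 3 of a group, a line for the mean and a bar for the SD (n = 3). Dbp, Tef, Hlf and Usp2 lie lower in every ethanol-fed liver than in every pair-fed liver, Nfil3 lies higher in every ethanol-fed liver, and wild type ethanol-fed mouse 3 stands at 344 CPM for Rora and 392 CPM for Bhlhe40.

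Dbp (chr7:45705247-45710203, mm10), a PAR bZIP gene known for a steep daily rhythm in liver, had 32.0, 9.57 and 11.7 CPM in ethanol-fed mice labelled knockout against 137, 115 and 82.9 CPM in pair-fed mice of that label. Ethanol-fed wild type mice had 29.9, 33.4 and 29.7 CPM, and pair-fed wild type mice 189, 75.2 and 115 CPM. Fed groups did not overlap in either genotype. The fall was 6.27-fold in mice labelled knockout (log2 -2.65 ± 0.45, adjusted p = 0.00207, edgeR) and 4.07-fold in wild type mice (log2 -2.02 ± 0.44, adjusted p = 0.00479, edgeR). Mouse 1 of the ethanol-fed mice labelled knockout stood at the level of the wild type ethanol-fed mice while the other two were lower, and without it the change in mice labelled knockout was -3.39 ± 0.37 (adjusted p = 0.000431). Dbp overlaps Sphk2 on the other strand, and because no source used here gives the strand setting of the counting, reads of the overlap cannot be told apart. Sphk2, a sphingosine kinase gene, had a log2 change of 0.39 ± 0.21 in mice labelled knockout (adjusted p = 0.190, edgeR) and rose by 0.85 ± 0.21 in wild type mice (adjusted p = 0.00827, edgeR), the opposite direction to Dbp.

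Tef (chr15:81802673-81826863), the thyrotroph embryonic factor, had 178, 147 and 114 CPM in ethanol-fed mice labelled knockout against 385, 361 and 339 CPM in pair-fed mice of that label. The wild type values were 198, 170 and 182 CPM in ethanol-fed mice and 408, 383 and 375 CPM in pair-fed mice. Every ethanol-fed liver was far below every pair-fed liver, and the ethanol-fed mice labelled knockout were spread more widely (1.55-fold) than the other 3 groups. Tef fell by 1.30 ± 0.15 in mice labelled knockout (adjusted p = 0.00023, edgeR) and by 1.08 ± 0.15 in wild type mice (adjusted p = 0.000319, edgeR).

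Hlf (chr11:90336535-90390917), the hepatic leukemia factor, had 83.3, 66.1 and 54.0 CPM in ethanol-fed mice labelled knockout against 159, 141 and 122 CPM in pair-fed mice of that label. In wild type it had 73.6, 53.8 and 73.1 CPM in ethanol-fed mice and 153, 163 and 161 CPM in pair-fed mice. Again the fed groups did not overlap. Hlf fell by 1.06 ± 0.17 in mice labelled knockout (adjusted p = 0.00121, edgeR) and by 1.25 ± 0.17 in wild type mice (adjusted p = 0.00031, edgeR).

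Nfil3 (chr13:52967209-52981039), the repressor at the D-box, moved the other way. It had 42.7, 45.5 and 55.2 CPM in ethanol-fed mice labelled knockout against 14.8, 16.5 and 28.5 CPM in pair-fed mice of that label. Wild type mice had 36.0, 88.4 and 116 CPM when ethanol-fed and 12.3, 22.2 and 22.5 CPM when pair-fed. The fed groups did not overlap in either genotype, and the 3 ethanol-fed wild type mice were spread 3.22-fold. Nfil3 rose 2.40-fold in mice labelled knockout (log2 1.26 ± 0.39, adjusted p = 0.0374, edgeR) and 4.22-fold in wild type mice (log2 2.08 ± 0.40, adjusted p = 0.00272, edgeR). The call in mice labelled knockout was lost without some single libraries. Its adjusted p was 0.0523, 0.0622 and 0.0963 without ethanol-fed labelled knockout mouse 1, 2 and 3, 0.0511 without ethanol-fed wild type mouse 2, and 0.118 and 0.119 without pair-fed labelled knockout mouse 1 and 2, with log2 changes of 1.09 to 1.34 over these fits.

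Genes were set side by side per kilobase of the deposited exonic length, a single length per gene whatever transcript forms the liver uses. The summed level of Dbp, Tef and Hlf was 55.4 ± 16.4 RPKM in ethanol-fed mice labelled knockout and 71.4 ± 3.89 RPKM in ethanol-fed wild type mice. It was 172.6 ± 24.6 RPKM and 190.4 ± 36.7 RPKM in the pair-fed groups of the same labels (SD, n = 3 each). Divided by the Nfil3 level, that sum was 3.44, 2.20 and 1.52 in ethanol-fed mice labelled knockout against 26.4, 21.1 and 10.3 in pair-fed mice of that label. It was 4.16, 1.52 and 1.23 in ethanol-fed wild type mice against 37.6, 14.3 and 16.0 in pair-fed wild type mice. All 6 ethanol-fed livers were below all 6 pair-fed livers in this ratio. That separation follows from those of Dbp, Tef, Hlf and Nfil3 given above and is no further evidence. Dbp gave on average 17.9% and 26.0% of the sum in ethanol-fed labelled knockout and wild type mice, against 38.2% in each pair-fed group. The wild type groups overlapped in that share, at 23.7, 29.5 and 24.8% when ethanol-fed against 48.7, 28.1 and 37.8% when pair-fed. Tef gave 60.2% and 57.6% in the ethanol-fed groups, against 47.4% and 46.6% in the pair-fed groups of the same labels, and no test was run on these shares. RNA levels stand here for transcripts and not for DNA-bound protein.

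**Figure D2:**
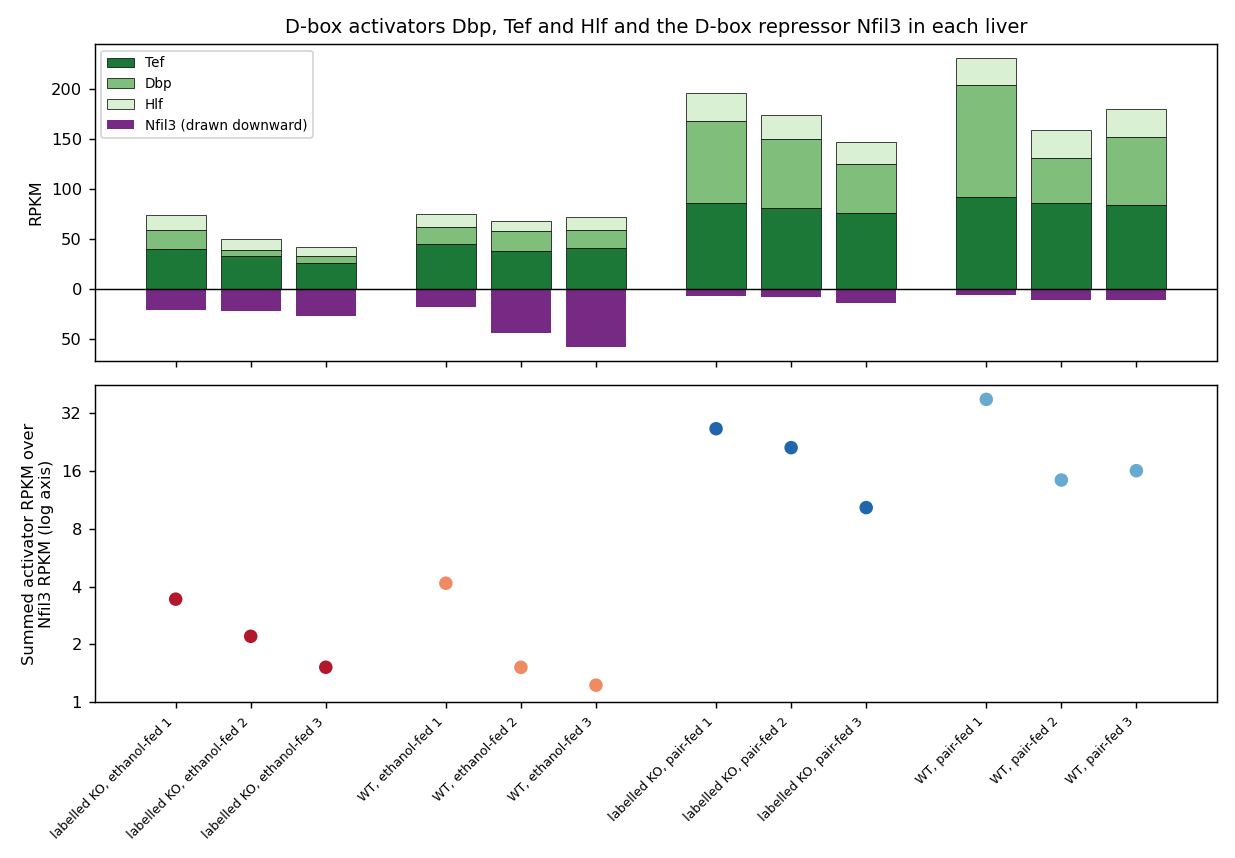
Upper panel, RPKM of Tef, Dbp and Hlf stacked upward and of Nfil3 drawn downward in each of 12 livers; lower panel, the stacked sum over the Nfil3 level on a log axis. Ratios lie at 1.23 to 4.16 in the ethanol-fed livers and at 10.3 to 37.6 in the pair-fed livers.

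Of the E-box repressors, Bhlhe41 rose in wild type mice and Bhlhe40 was not called in either genotype. Bhlhe40 (chr6:108660629-108666925) had 214, 143 and 146 CPM in ethanol-fed mice labelled knockout against 152, 165 and 190 CPM in pair-fed mice of that label. Its wild type values were 193, 217 and 392 CPM in ethanol-fed mice and 232, 189 and 219 CPM in pair-fed mice. Groups overlapped in both genotypes, and mouse 3 of the ethanol-fed wild type mice stood apart from its group. The log2 change was -0.01 ± 0.24 in mice labelled knockout (95% interval -0.53 to 0.51) and 0.33 ± 0.24 in wild type mice (-0.20 to 0.85), neither past the threshold.

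Bhlhe41 (chr6:145858243-145865420) was the lowest member, at 12 to 54 counts in a library. It had 1.94, 1.37 and 2.31 CPM in ethanol-fed mice labelled knockout against 1.45, 1.46 and 0.866 CPM in pair-fed mice of that label, and these overlapped. In wild type it had 2.38, 3.08 and 2.20 CPM in ethanol-fed mice and 1.42, 0.701 and 0.701 CPM in pair-fed mice, with no overlap. In mice labelled knockout its change was 0.56 ± 0.34 (interval -0.17 to 1.30, adjusted p = 0.242, edgeR). Bhlhe41 rose 2.69-fold in wild type mice (log2 1.43 ± 0.34, adjusted p = 0.0069, edgeR). The difference between these changes was not past the threshold (-0.86 ± 0.48, interval -1.90 to 0.18).

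Ciart (chr3:95878505-95882228), whose promoter window held 3 E-boxes, had 4.95, 6.95 and 7.80 CPM in ethanol-fed mice labelled knockout against 19.9, 17.6 and 14.8 CPM in pair-fed mice of that label. Ethanol-fed wild type mice had 11.7, 21.0 and 11.9 CPM against 25.8, 22.5 and 18.4 CPM in pair-fed wild type mice. The groups were far apart in mice labelled knockout, while mouse 2 of the ethanol-fed wild type mice lay within the pair-fed range. Ciart fell by 1.41 ± 0.25 in mice labelled knockout, a 2.66-fold drop (adjusted p = 0.00184, edgeR). For wild type mice the change of -0.58 ± 0.24 missed the threshold (adjusted p = 0.0772, edgeR), and without ethanol-fed wild type mouse 2 it was -0.93 ± 0.21 and passed (adjusted p = 0.00795). Ciart overlaps the weakly counted C920021L13Rik on the other strand, which averaged 10.75 counts a library and was not called in any comparison.

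Rora (chr9:68653786-69388246) had 148, 138 and 142 CPM in ethanol-fed mice labelled knockout against 97.0, 102 and 111 CPM in pair-fed mice of that label. In wild type it had 94.0, 179 and 344 CPM in ethanol-fed mice and 97.8, 107 and 107 CPM in pair-fed mice. The first pair of groups did not overlap, yet the change of 0.46 ± 0.33 was not past the threshold (interval -0.25 to 1.17, adjusted p = 0.324, edgeR). It passed when only those 6 libraries were fitted (0.43, adjusted p = 0.0277), and the cause of that gain was not tested. The 3 ethanol-fed wild type mice were spread 3.65-fold for this gene. Wild type mice showed a rise of Rora of 1.98-fold (0.98 ± 0.33, adjusted p = 0.0373, edgeR) with overlapping groups. That rise rested largely on ethanol-fed wild type mouse 3, without which it was 0.39 ± 0.20 (adjusted p = 0.173). The call was also lost, with adjusted p of 0.0540, 0.1001, 0.0861, 0.0874, 0.0504 and 0.0503, without ethanol-fed wild type mouse 2, pair-fed wild type mouse 1, 2 or 3, ethanol-fed labelled knockout mouse 3 or pair-fed labelled knockout mouse 2 in that order, and with only the 6 wild type libraries (0.105).

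Usp2 (chr9:44067021-44095627), whose transcript cycles in many tissues, had 17.3, 42.1 and 17.7 CPM in ethanol-fed mice labelled knockout against 157, 144 and 115 CPM in pair-fed mice of that label. Wild type values were 26.5, 24.8 and 15.2 CPM in ethanol-fed mice and 154, 169 and 135 CPM in pair-fed mice. Every ethanol-fed liver was below every pair-fed liver, with mouse 2 of the ethanol-fed mice labelled knockout the highest among them. Usp2 fell 5.40-fold in mice labelled knockout (log2 -2.43 ± 0.33, adjusted p = 0.000629, edgeR) and 6.89-fold in wild type mice (log2 -2.78 ± 0.33, adjusted p = 0.000206, edgeR).

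The order of the members by level differed with feeding. Ethanol-fed livers put Bhlhe40 at the top, at 53.9 RPKM in mice labelled knockout and 85.9 RPKM in wild type mice, with ranges apart from that of Tef, the next in order, at 32.8 and 41.1 RPKM. Nfil3 came next in both, at 24.0 and 40.2 RPKM, with a range overlapping that of Tef. Usp2 stood at 5.85 RPKM in ethanol-fed mice labelled knockout and 5.05 RPKM in ethanol-fed wild type mice. The ranges of Hlf, Rora and Dbp overlapped one another in mice labelled knockout. In pair-fed wild type livers Tef led at 87.1 RPKM, followed by Dbp at 75.2, Bhlhe40 at 68.5, Usp2 at 34.8, Hlf at 28.1, Ciart at 15.9, Nfil3 at 9.53, Rora at 8.44 and Bhlhe41 at 0.154 RPKM. The neighbours Tef and Dbp, Dbp and Bhlhe40, and Nfil3 and Rora overlapped in range there.

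Between genotype labels, Ciart was the member that differed. In ethanol-fed livers it was 2.27-fold lower in mice labelled knockout than in wild type mice, at 6.57 ± 1.46 against 14.9 ± 5.32 CPM (log2 -1.18 ± 0.25, adjusted p = 0.0358, edgeR), and the groups did not overlap, as for 6.21% of all genes in that direction. That made 1 of 9 members called in ethanol-fed mice, where 1.13% of all genes were called and 0.374% were called lower, and 3 members (Tef, Bhlhe40 and Ciart) had an unadjusted p under 0.05. In the authors' deposited table the same comparison had a log2 fold change of -1.18 and an FDR of 0.000813. The call was lost in 9 of the 12 fits that left out a library. Its adjusted p was 0.0739, 0.115 and 0.0742 without ethanol-fed labelled knockout mouse 1, 2 and 3, and 0.109 without ethanol-fed wild type mouse 2, where the change was -0.85 ± 0.21. Without pair-fed labelled knockout mouse 1, 2 or 3, or pair-fed wild type mouse 1 or 2, it was 0.0568, 0.0619, 0.0522, 0.0516 and 0.0645. It was also lost with limma voom (-1.39, adjusted p = 0.105), with only the 6 ethanol-fed libraries (-1.19, adjusted p = 0.252) and with the sample numbers as a block (-1.15, adjusted p = 0.0588), and it held with DESeq2.

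For the other 8 members the ethanol-fed genotype difference was not past the threshold. Dbp averaged 17.8 ± 12.4 CPM in mice labelled knockout and 31.0 ± 2.06 CPM in wild type mice, a log2 difference of -0.80 ± 0.43 (interval -1.74 to 0.15). Without ethanol-fed labelled knockout mouse 1 that difference was -1.54 and passed (adjusted p = 0.0455). Bhlhe40 averaged 168 ± 40.3 CPM in mice labelled knockout and 267.5 ± 109 CPM in wild type mice (-0.67 ± 0.24, adjusted p = 0.227, edgeR, and an FDR of 0.150 in the authors' deposited table). Nfil3 averaged 47.8 ± 6.58 CPM in mice labelled knockout and 80.2 ± 40.6 CPM in wild type mice (-0.75 ± 0.38, interval -1.59 to 0.10). Tef was at -0.33 ± 0.15 (interval -0.65 to -0.0033), Hlf at 0.02 ± 0.17 (-0.35 to 0.39), Bhlhe41 at -0.45 ± 0.32 (-1.14 to 0.24) and Usp2 at 0.21 ± 0.32 (-0.48 to 0.91). Rora was at -0.53 ± 0.32 (-1.24 to 0.18), reached -0.88 and passed without ethanol-fed wild type mouse 1 (adjusted p = 0.0266), and was at 0.06 without mouse 3 of that group.

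In pair-fed livers 0 of 9 members were called by edgeR between genotype labels, where 0.87% of all genes were called, with 0 at an unadjusted p under 0.05 and 0 by DESeq2 or limma voom. The log2 differences, labelled knockout over wild type, ran between -0.35 ± 0.24 for Ciart and 0.41 ± 0.36 for Bhlhe41. Intervals were narrowest for Tef (-0.10, interval -0.42 to 0.22) and Hlf (-0.17, interval -0.54 to 0.19) and wide for Dbp (-0.18, interval -1.09 to 0.74). The ethanol response itself was tested between labels as the change in mice labelled knockout minus the change in wild type mice. For this edgeR called 0 of 9 members, beside 1 gene of all (0.00764%), with 1 member at an unadjusted p under 0.05 and 0 called by DESeq2 or limma voom. That member was Ciart, at -0.83 ± 0.34 (interval -1.57 to -0.10, adjusted p = 0.936, edgeR). Nfil3 was at -0.82 ± 0.55 (interval -2.02 to 0.39), Dbp at -0.62 ± 0.60 (-1.93 to 0.69) and Usp2 at 0.35 ± 0.45 (-0.62 to 1.32), so differences of over 2-fold lie within these intervals. A change called in 1 genotype alone, as for Bhlhe41, Rora and Ciart, is therefore not shown to differ between genotypes.

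**Figure D3:**
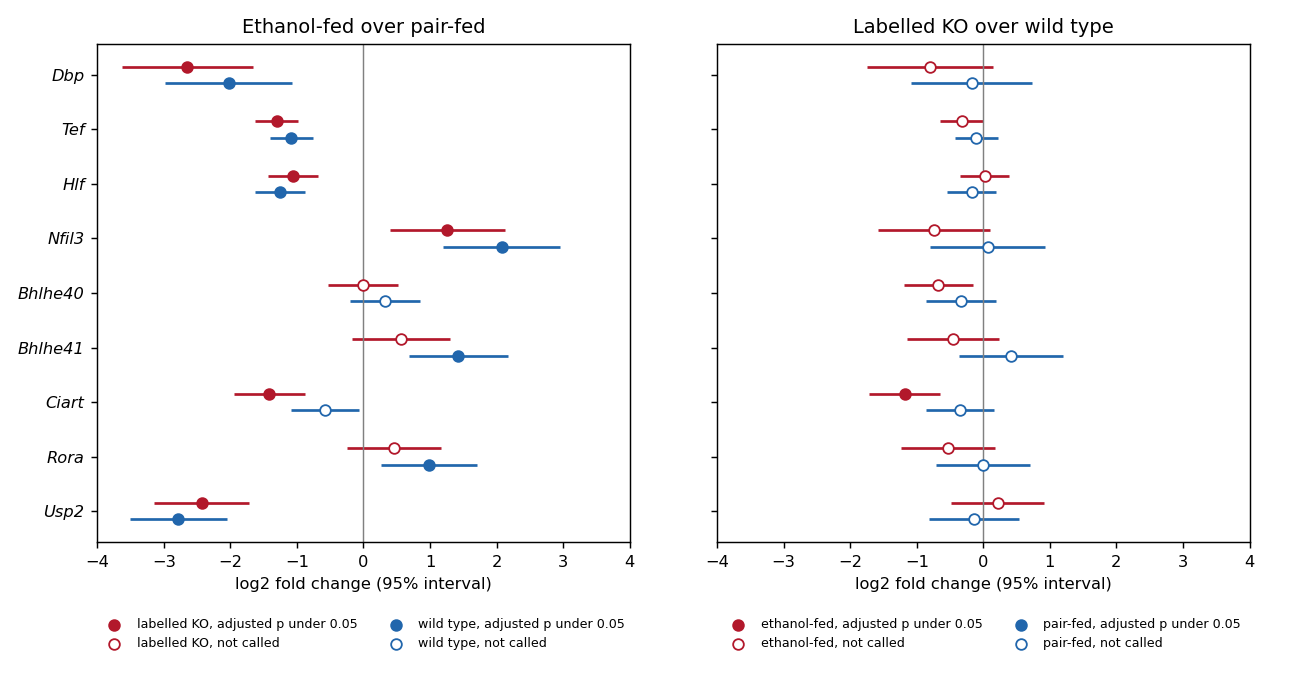
Log2 fold changes (points) with 95% intervals (lines) for the 9 genes, ethanol-fed over pair-fed on the left and labelled knockout over wild type on the right, filled where the adjusted p was under 0.05. Filled points lie left of 0 for Dbp, Tef, Hlf and Usp2 in both genotypes under ethanol, and Ciart in ethanol-fed livers is the filled point on the right.

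Other clock genes were described from lists made with earlier results of these data known, and their counts stand beside the 24.6% of all genes called under ethanol in mice labelled knockout and the 33.4% in wild type mice. The E-box activators Arntl, Clock and Npas2 were higher under ethanol in each genotype, 3 of 3, though Npas2 was below 1 CPM in every liver. Arntl, which encodes BMAL1, averaged 14.4 ± 6.00 CPM in ethanol-fed mice labelled knockout against 1.28 ± 0.590 CPM in pair-fed mice of that label, and rose by 3.48 ± 0.46. Wild type Arntl averaged 6.04 ± 1.30 CPM when ethanol-fed and 1.73 ± 0.905 CPM when pair-fed, and rose by 1.80 ± 0.45. Clock rose by 1.41 ± 0.23 in mice labelled knockout and by 1.28 ± 0.23 in wild type mice. Arntl differed between labels by 1.25 ± 0.40 in ethanol-fed livers, not past the threshold (adjusted p = 0.176, edgeR).

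Among the 5 period and cryptochrome genes, the main repressors of the loop, Per3 fell in mice labelled knockout by 0.86 ± 0.27 (adjusted p = 0.0349, edgeR). That was 1 of 5 called by edgeR, beside 24.6% of all genes called, so the count is no result about them. DESeq2 and limma voom each called 2 of the 5 lower in mice labelled knockout. In wild type mice edgeR called 0 of 5, with 3 at an unadjusted p under 0.05 and 0 by DESeq2 or limma voom. Per2 had a log2 change of -0.36 ± 0.16 there, and Cry1 of -0.74 ± 0.33. Among nuclear receptors that act at ROR elements, the repressor Nr1d2 fell in mice labelled knockout by 1.15 ± 0.18 and in wild type mice by 0.93 ± 0.18. Nr1d1, which encodes REV-ERB alpha, was lower in ethanol-fed mice labelled knockout than in ethanol-fed wild type mice, at 25.7 ± 6.89 against 67.3 ± 19.5 CPM (-1.39 ± 0.26, adjusted p = 0.0222, edgeR). Like Ciart, it was not called by limma voom.

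Genes known as PAR bZIP targets were called in both directions. Of 12, 4 were higher and 2 lower under ethanol in mice labelled knockout (median 0.12), and 6 were higher and 2 lower in wild type mice (median 0.23). Cyp2b10, a xenobiotic cytochrome P450 that also answers to the constitutive androstane receptor, rose by 4.01 ± 0.19 in mice labelled knockout and by 7.31 ± 0.22 in wild type mice. It was the 1 gene called for a difference of ethanol response between labels (-3.30 ± 0.25). That difference lay in the pair-fed livers, where Cyp2b10 was higher in mice labelled knockout than in wild type mice, at 64.5 ± 13.5 against 8.11 ± 0.480 CPM (2.99 ± 0.19, adjusted p = 3.63e-06, edgeR). In ethanol-fed livers it averaged 1039 ± 163 CPM in mice labelled knockout and 1287 ± 172 CPM in wild type mice (-0.31 ± 0.17, adjusted p = 0.413, edgeR). Cyp2c29, another drug-metabolising P450, rose by 1.53 ± 0.20 in mice labelled knockout and by 1.73 ± 0.20 in wild type mice. Ppara, a receptor for fatty acids, had log2 changes of -1.44 ± 0.20 in mice labelled knockout and -1.94 ± 0.20 in wild type mice. Of 6 ROR targets, 2 were higher and 1 lower in mice labelled knockout and 1 higher and 1 lower in wild type mice. Cyp7b1, an oxysterol hydroxylase, was the lower one in each, at -0.93 ± 0.22 and -0.78 ± 0.22. In wild type mice the share of ROR targets called was close to the 33.4% of all genes, so the count is no result about them.

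Of 11 other rhythmic liver genes, 6 were lower and 0 higher in mice labelled knockout, and 5 were lower and 1 higher in wild type mice. For the count of 0 higher, DESeq2 gave 1 and limma voom 0, and 7 of the 11 had an unadjusted p under 0.05 in either direction. Nampt, the NAD salvage enzyme gene, fell by 0.95 ± 0.12 in mice labelled knockout and by 1.10 ± 0.13 in wild type mice. Gys2, liver glycogen synthase, fell by 1.29 ± 0.17 in mice labelled knockout. Its wild type means were 176 ± 47.5 CPM when ethanol-fed and 444 ± 52.2 CPM when pair-fed. Of 7 genes for clock protein turnover, 1 was higher in mice labelled knockout, and 2 were higher and 1 lower in wild type mice, beside 24.6% and 33.4% of all genes called, so neither count is a result about them. Csnk1e, a kinase of PER proteins, rose by 1.08 ± 0.24 in mice labelled knockout and by 1.12 ± 0.24 in wild type mice.

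**Figure D4:**
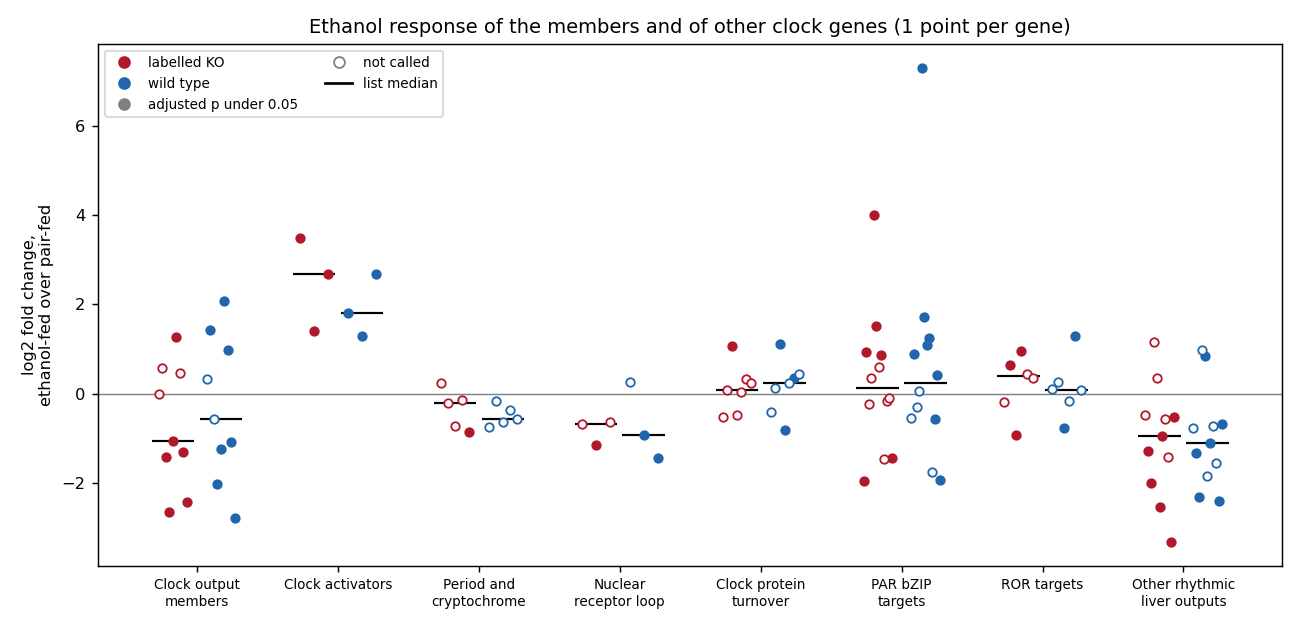
Log2 fold change of ethanol-fed over pair-fed for each gene (1 point) of the 9 members and of 7 other clock lists, in mice labelled knockout (red) and wild type mice (blue), filled where the adjusted p was under 0.05, with a line at each list's median. The 3 clock activators lie above 0 in both genotypes, and the members lie on both sides of 0.

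For each member the genes with the nearest profile were found over the 12 livers, by the root mean square difference of centred log2 CPM among 11511 candidate genes. The members themselves, weakly counted genes and genes with clone or predicted names were not candidates. How near the members lie to one another was therefore not measured. Nearest to Dbp were Rnf152 at 0.41, Srebf1 at 0.43 and Itpka at 0.48, beside an SD of 1.40 for Dbp itself. Srebf1, a master gene of fatty acid synthesis, had log2 changes of -2.19 in mice labelled knockout and -1.91 in wild type mice under ethanol. Tef and Hlf shared Fbxl20 among their 3 nearest genes, at 0.16 and 0.17, and Hlf was nearest to Vwce at 0.14. Usp2 was nearest to Tsc22d3, a glucocorticoid-induced gene, at 0.47, and also had Insig1, a sterol sensor, at 0.49. Nfil3 was nearest to Rab30 at 0.27, Bhlhe40 to Ralgapa2 at 0.15, Bhlhe41 to Slc37a1 at 0.27, Ciart to Wdr76 at 0.34 and Rora to Tmem11 at 0.13. All these distances share the same 12 libraries and the split by feeding.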

How the data were processed

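Liver RNA of 12 mice was sequenced from TruSeq libraries, per the labels' protocols. Alignment with STAR 2.5 to mm10, counting with featureCounts of Subread 1.5.3 and testing with edgeR 3.20.8 are named in the submitters' processing notes. The sources used here give neither the annotation nor the strand setting. The authors deposited whole-number counts per gene, which were used here. The deposited log2 values (log2 CPM and the authors' log2 fold changes) and the deposited p-values and FDR of the genotype comparisons were used for checks and where named; log2 CPM was matched within 7.59e-06 using a prior count of 0.25.

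All 13097 genes, the 9 members included, passed filterByExpr. Counts were fitted with edgeR 4.0.16 in R 4.3.3 (TMM, robust quasi-likelihood, 1 coefficient per group, 12 libraries, 8 residual degrees of freedom), with SE as the fold change on the log2 scale divided by the root of F, and adjusted over all genes of a comparison. The procedure was tested on simulated counts with known changes and, for each gene, the same spread in every group. The wider spread of the ethanol-fed groups was therefore not part of that test. RPKM is TMM-normalised CPM per kilobase of the deposited length. The transcript forms used in liver were not examined, so the order of genes by RPKM carries that limit. Libraries within a group all differed by more than sampling noise (chi-square over degrees of freedom 12.9 to 114), and the design text gives individual mice. Total counts of 17305141 to 18279809 set the counting precision, and p-values rest on the spread between mice. Alternatives used DESeq2 1.42.0, limma 3.58.1 voom, other scalings and filters, only the groups compared, a replicate block and leaving out each library.

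The members and lists were chosen with earlier results of these data known. Named genes are all members, Sirt6, up to 2 genes of each list with the smallest p in a comparison and the 3 nearest profiles of each member; results of some genes are left out. Sphk2 and C920021L13Rik are named as genes overlapping members, and Alb, Ttr and Tat as hepatocyte markers, after their values were seen.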

Additional observations from a re-analysis of the deposited data

How the results depend on the processing

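Of 45 member values (9 genes, 5 comparisons), 14 were called and 11 of these held under every alternative, while Nfil3 under ethanol in mice labelled knockout, Rora under ethanol in wild type and Ciart between ethanol-fed genotypes did not; the cause was not tested. No called value changed sign. Members called under ethanol numbered 6 in mice labelled knockout (5 to 6 leaving out a library) and 7 in wild type (6 to 7). Between ethanol-fed genotypes 1 was called, against 0 with limma voom, 0 fitting the groups compared alone, 0 with the replicate block and 0 to 2 leaving out a library. The labels do not say whether equal sample numbers mark a pairing. Of 18 same-numbered pairs, 3 deviated together (r over 0.1, range -0.18 to 0.19) and 5 matched their own number best. Deviations from means of 3 mice cannot exclude a shared litter or day. Under the block, all genes called were 2915 and 3949 of 13097 for ethanol in mice labelled knockout and wild type, against 3222 and 4380.

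Uncalled values changed sign with total counts for Bhlhe40 under ethanol in mice labelled knockout (0.11), Hlf between ethanol-fed genotypes (-0.00277) and Rora between pair-fed genotypes (0.0132). Leaving out a library gave Bhlhe40 -0.23 to 0.0911 and -0.0560 to 0.51 under ethanol in mice labelled knockout and wild type. Between ethanol-fed genotypes it gave Hlf -0.15 to 0.16, Rora -0.88 to 0.0602 and Usp2 -0.34 to 0.44, and between pair-fed genotypes Dbp -0.44 to 0.23, Nfil3 -0.28 to 0.24 and Rora -0.0613 to 0.0383. For the difference of responses it gave Bhlhe40 -0.55 to 0.0457, Rora -0.87 to 0.0666 and Usp2 -0.21 to 0.57.

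Over all genes, 448 were called between ethanol-fed genotypes by DESeq2, 50 by limma voom and 47 when fitting the groups compared alone, against 148, and 253, 648 and 481 between pair-fed genotypes, against 114. For the difference of responses DESeq2 called 15, against 1. Leaving out a library gave 1853 to 3867 and 3023 to 4884 for ethanol in mice labelled knockout and wild type, 69 to 697 and 48 to 151 between ethanol-fed and pair-fed genotypes, and 1 to 20 for the difference of responses. Total counts moved the all-gene median under ethanol to 0.14 and 0.18 in mice labelled knockout and wild type, against 0.04 and 0.03, and the higher calls to 2159 of 3087 and 3219 of 4342, against 1794 of 3222 and 2480 of 4380. Bhlhe41 rests on 12 to 54 counts a library.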
